A study of Mus musculus with 8 samples.

Results

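Mylk3 and Popdc2, a pair of genes known from heart muscle, were followed in leukemia cells of mice given vehicle or AG636, an oral inhibitor of DHODH, the enzyme of pyrimidine synthesis in mitochondria. They are 2 of the 54838 genes counted. They were taken because both stood among the largest rises with AG636 in these same 8 samples, so their change between the groups is given below as a description and is not tested. The cells were acute myeloid leukemia (AML) cells of genotype RUNX1-RUNX1T1 and background C57BL/6, established as leukemias from frozen cells of a moribund mouse and transplanted into Ptprca recipients. There were 4 Vehicle samples and 4 AG636 samples, the latter from mice dosed by oral gavage at 100 mg/kg b.i.d., and the study states a treatment of 1 day for the sequenced cells. The labels give sublethal irradiation for all recipients, whereas the methods of the study give it for other models than this one. Leukemic cells were sorted from bone marrow and spleen, and the labels do not say which sample came from which organ. The study describes the sorted cells as cKit high and CD11b low or negative. The labels do not say that each sample is a separate mouse, and the legend of the study gives fewer mice than there are samples. The spread between samples given here may then be partly technical.

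Mylk3 encodes a myosin light chain kinase of the heart, which phosphorylates the regulatory light chain of cardiac myosin and in this way helps to order the contractile filaments. Popdc2 belongs to the Popeye domain family, membrane proteins of striated muscle that bind the second messenger cAMP and are known for their part in the heart's pacemaking and conduction. Neither gene is used as a marker of blood cells.

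RNA was read from the 3′ end of polyadenylated transcripts, so that a count follows the number of transcripts and is not divided by gene length. Levels are given as CPM, counts scaled to a common library size, after adjustment of each library by its TMM factor, which corrects for differences in RNA composition. Libraries held 6120030 to 7162036 counts, and 3 counts correspond to 0.434 to 0.479 CPM. Of all genes, 10911 passed the filter on low counts, both Mylk3 and Popdc2 among them. The sort was visible in the counts, with 1022 to 1580 counts of Kit (the cKit receptor) and 0 to 4 counts of Itgam (CD11b) per library. Vehicle sample 4 stood apart from the other Vehicle samples. Compared with each of them over all genes, its chi-square per degree of freedom was 8.52 to 12.0, against 3.69 to 4.27 among the other 3, and between AG636 samples it was 12.9 to 22.6. In bulk samples such as these, fewer cells of a type and less RNA per cell cannot be told apart.

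Mylk3 (ENSMUSG00000031698) lies on chromosome 8, from 85324303 to 85386345 on the − strand of GRCm38, and Popdc2 (ENSMUSG00000022803) on chromosome 16, from 38362209 to 38378216 on the + strand. GENCODE M21 gives Mylk3 coding forms of 12 and 13 exons that begin at 85365324, 85365347 or 85380978 and a coding form of 3 exons that begins at 85386345. It gives Popdc2 coding forms of 4 exons that begin at 38362209 or 38362245. Counts per gene do not tell these starts apart. The Mylk3 form of 3 exons ends at 85359248 and the other coding forms at 85324303 to 85327053. No promoter window is printed for the form that begins at 85386345. AA672651 overlaps the span of Mylk3 and Gm21987 that of Popdc2, and both had 0 counts in every library. The 250 bases before each RefSeq start (GRCm38.p6) are printed because the genes changed together and their promoters can be read side by side for letters known to be bound by RUNX, GATA and muscle factors. They run 5′ to 3′ on the strand of the gene, and capitals mark GATAA or, on the other strand, TTATC. Mylk3 promoter 1 is chr8:85381042-85381291 (− strand), Mylk3 promoter 2 is chr8:85365325-85365574 (− strand) and the Popdc2 promoter is chr16:38361940-38362189 (+ strand).
Mylk3 promoter 1: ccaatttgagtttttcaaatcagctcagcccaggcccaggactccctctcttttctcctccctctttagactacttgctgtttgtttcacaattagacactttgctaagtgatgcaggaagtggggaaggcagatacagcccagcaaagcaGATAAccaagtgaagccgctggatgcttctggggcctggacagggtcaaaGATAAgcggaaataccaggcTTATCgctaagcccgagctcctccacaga
Mylk3 promoter 2: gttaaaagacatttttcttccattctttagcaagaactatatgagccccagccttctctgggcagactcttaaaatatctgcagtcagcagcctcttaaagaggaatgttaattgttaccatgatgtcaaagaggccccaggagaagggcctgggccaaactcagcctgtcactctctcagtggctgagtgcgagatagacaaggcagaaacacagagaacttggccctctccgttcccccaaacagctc
Popdc2 promoter: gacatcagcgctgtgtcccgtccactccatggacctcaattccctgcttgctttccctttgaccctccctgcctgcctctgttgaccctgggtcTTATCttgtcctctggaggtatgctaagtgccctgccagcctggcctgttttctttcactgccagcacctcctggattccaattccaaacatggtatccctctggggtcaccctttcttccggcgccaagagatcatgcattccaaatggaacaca
Mylk3 promoter 1 held 3 GATAA matches, at 99 to 95 and 49 to 45 bases before the start on the gene's strand and at 29 to 25 bases on the other strand. It also held 1 E-box (CANNTG, which reads the same on both strands) at 93 to 88 bases. Mylk3 promoter 2 held no match to any motif searched. The Popdc2 promoter held 1 GATAA match on the other strand, at 156 to 152 bases, and 1 E-box at 13 to 8 bases. Searched on both strands, TGTGGT (RUNX), TGACGTCA (cAMP response element), its first letters TGACG, the MEF2 site and the CArG box of serum response factor had no match in any of the 3 windows. Of 32851 promoter windows of the same length, 22.6% held GATAA and 0.712% held it 3 or more times, a number chosen after the Mylk3 promoter had been read. The shares were 66.2% for the E-box, 14.0% for TGTGGT, 17.8% for TGACG, 1.55% for TGACGTCA, 2.92% for the MEF2 site and 1.47% for the CArG box. A match is a description of letters and not a bound site, and the absence of one says only that these letters are not in the window.

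Mylk3 was present in the leukemia cells without treatment. Vehicle samples 1 to 4 held 480, 574, 393 and 240 counts of Mylk3, or 69.9, 88.2, 60.8 and 36.5 CPM. AG636 samples 1 to 4 held 1006, 2320, 749 and 1106 counts, or 156.4, 370.3, 119.5 and 159.9 CPM. The groups did not overlap, but they came close, since the lowest AG636 sample (sample 3) was 1.35 times the highest Vehicle sample (sample 2). AG636 sample 2 stood far above the other 3 treated samples, and Vehicle sample 4 lay lowest of all. The mean was 63.9 ± 21.5 CPM in Vehicle and 202 ± 114 CPM in AG636 (SD, n = 4), a fitted log2 fold change of 1.58 (SE 0.34), or 2.99-fold. Without AG636 sample 2 the log2 fold change was 1.24, and without Vehicle sample 4 it was 1.35.

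Popdc2 was the steadier of the pair. Vehicle samples 1 to 4 held 214, 181, 195 and 164 counts of Popdc2, or 31.2, 27.8, 30.2 and 24.95 CPM. AG636 samples 1 to 4 held 509, 610, 373 and 518 counts, or 79.2, 97.4, 59.5 and 74.9 CPM. Here too the groups did not overlap, with the lowest AG636 sample (again sample 3) at 1.91 times the highest Vehicle sample (sample 1). The mean was 28.5 ± 2.77 CPM in Vehicle and 77.7 ± 15.6 CPM in AG636 (SD, n = 4), a fitted log2 fold change of 1.43 (SE 0.15), or 2.69-fold. As in Mylk3, AG636 sample 2 was the highest treated sample and Vehicle sample 4 the lowest untreated one.

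**Figure D1:**
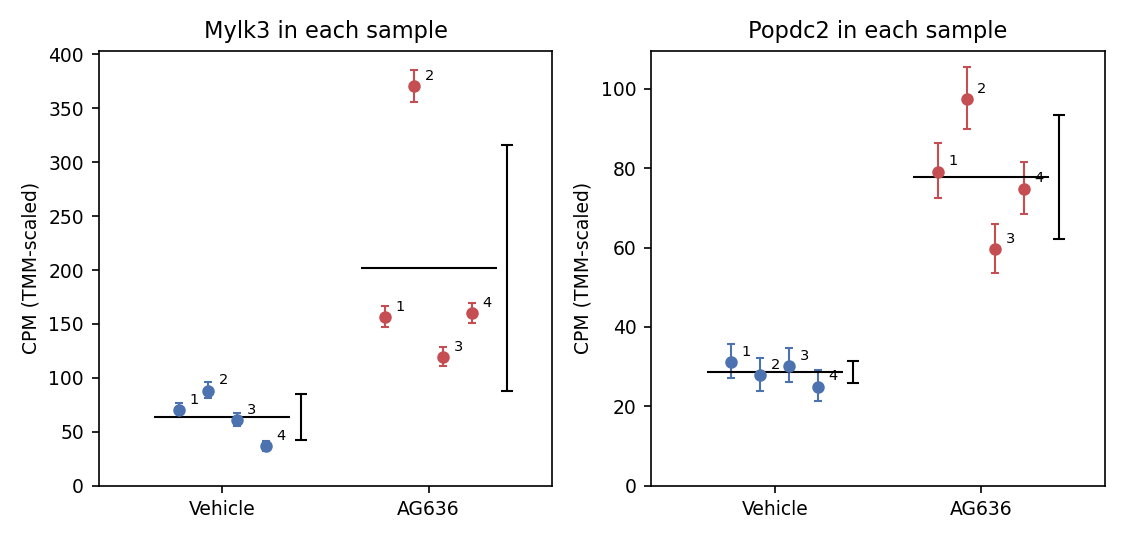
CPM (TMM-scaled) of Mylk3 and Popdc2 in the 4 Vehicle and 4 AG636 samples, numbered by replicate. Colored bars are 95% intervals of the count in that library (counting error only), horizontal lines are group means and black bars are ± 1 SD. Mylk3 runs from 36.5 to 88.2 CPM in Vehicle and from 119.5 to 370.3 CPM in AG636, and Popdc2 from 24.95 to 31.2 and from 59.5 to 97.4 CPM.

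Among all tested genes, 1020 (9.35%) were higher in AG636 without overlap between the groups, and 597 (5.47%) were called higher by limma-voom at an adjusted p under 0.05. The pair was chosen on this contrast, so nothing is read from its place in that share. The order from which the pair was taken ran over the 285 genes higher in AG636 by that call, without overlap and at a mean log2 CPM of 5 or more. In it Mylk3 stood at rank 2 and Popdc2 at rank 5 by log2 fold change, which describes how they were chosen. Hist2h2be, a histone gene, came first at 1.75 (SE 0.13), and Snord13 (1.54) and Pspc1 (1.43) lay between the pair. Just below Popdc2 (1.43) was Tspo2, a gene of the translocator protein family, at 1.35, with 46.4 CPM in Vehicle and 127 CPM in AG636. Of the tested genes, 279 (2.56%) had a log2 fold change of at least 1. By log2 fold change alone, without the limit on level and overlap, Mylk3 ranked 57 and Popdc2 93 among the tested genes, most of the genes above them being expressed at low levels, as the plot of fold change against level shows.

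**Figure D2:**
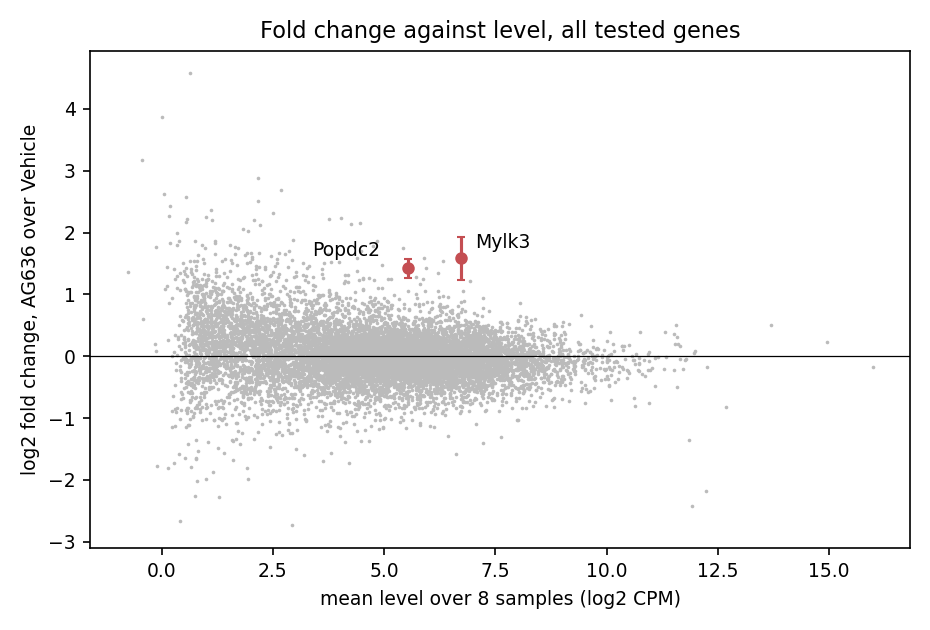
Fitted log2 fold change of AG636 over Vehicle (vertical axis) against mean log2 CPM over the 8 samples (horizontal axis) for the 10911 genes tested, each a grey point. Mylk3 (1.58) and Popdc2 (1.43) are red with bars of ± 1 SE and lie above nearly all genes of their level, a place that the choice of these genes fixes.

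The spread between replicates was wider for Mylk3 than for Popdc2. The coefficient of variation of Mylk3 was 33.7% in Vehicle and 56.6% in AG636, whereas its counting error was 2.08 to 6.46% per library. For Popdc2 it was 9.71% and 20.0%, with a counting error of 4.05 to 7.81%, so that in Vehicle its spread was little above counting error. On the log2 scale the SD of Mylk3 was 0.54 in Vehicle and 0.71 in AG636, and that of Popdc2 0.14 and 0.29. Pooled over both groups after subtracting the group means, the SD was 0.63 for Mylk3 and 0.23 for Popdc2, against a median of 0.15 over the 5261 tested genes with a mean log2 CPM of at least 5. Mylk3 lay at the percentile 99.05 of these genes and Popdc2 at 79.95. Thus Mylk3 varied more between samples of the same group than nearly all of these genes, a set without an upper limit on level. Over all tested genes Mylk3 lay at the percentile 94.23 and Popdc2 at 55.

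The ratio of Mylk3 to Popdc2 within a sample was compared across samples. In Vehicle samples 1 to 4 it was 2.24, 3.17, 2.02 and 1.46, and in AG636 samples 1 to 4 it was 1.98, 3.8, 2.01 and 2.14. The groups overlapped widely in this ratio. AG636 sample 2 stood apart from the other treated samples in it, since Mylk3 was raised further there than Popdc2. The ratio is used only between samples and not as a comparison of the levels of the genes.

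The relatives of both genes were nearly silent. Of the other myosin light chain kinases, Mylk (the smooth muscle and non-muscle form) had 0 to 5 counts per library, Mylk4 at most 1 count, and Mylk2 (the skeletal muscle form) 0 counts in all 8. Of the other Popeye genes, Bves and Popdc3 had 0 counts in all 8. A count of 0 allows a level of up to 0.434 to 0.479 CPM, and none of the 5 relatives passed the filter. Mylk3 and Popdc2 were therefore the members of their families with transcripts well above this limit in both groups.

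To place Mylk3 in its reaction, the myosin light chains, the kinases and phosphatase subunits that set their phosphorylation and the myosins that carry them were read from the same fit. Of 28 genes, 26 had counts and 21 were tested, of which 2 were called higher and 1 lower. Over all tested genes 14.0% were called in either direction, 5.47% higher and 8.49% lower. Rock1, a kinase that acts on the light chain and on its phosphatase, rose from 413 ± 12.8 to 499 ± 12.3 CPM (SD, n = 4; log2 fold change 0.27, SE 0.07, limma-voom adjusted p = 0.0273). Cit (citron kinase), which acts at cytokinesis, rose from 123 ± 9.51 to 161 ± 19.5 CPM (0.39, SE 0.10, limma-voom adjusted p = 0.0326). Mylpf, the regulatory light chain of fast skeletal muscle, fell from 12.8 ± 1.72 to 7.18 ± 3.21 CPM (−0.93, SE 0.28, limma-voom adjusted p = 0.0475). Dapk2, a death-associated kinase, had a log2 fold change of 0.37 (adjusted p = 0.0529). The median log2 fold change of the 21 genes was 0.002, beside −0.006 over all tested genes. The heart light chains on which Mylk3 is known to act were at the limit of detection, with at most 1 count of Myl2 in any library and 0 counts of Myl7. Some other light chains of the list were expressed. Myl12a had 297 ± 9.265 CPM in Vehicle and 302.5 ± 30.4 CPM in AG636 (log2 fold change 0.02), and Myl12b 20.6 ± 1.74 and 20.8 ± 3.65 CPM (0.001). Myh14 was also at 0. The calls of this list depended on single libraries, with 0 calls without Vehicle sample 1, 2 or 3 and 1 without AG636 sample 1. Mylpf lost its call with edgeR (adjusted p = 0.0761), RLE factors (0.0516), library size alone (0.0603) and no filter (0.0627), and kept it with DESeq2 (0.0444). With edgeR or RLE factors 3 genes were higher and 0 lower, and with library size alone 5 and 0. Dapk2 passed with edgeR (adjusted p = 0.0482), DESeq2 (0.0214), RLE factors (0.0461) and library size alone (0.0289), and not without the filter (0.134).

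Around Popdc2, the genes that make, break down, bind or relay cAMP were read in the same way. Of 48 genes, 41 had counts and 26 were tested. Where 5.47% of all tested genes were called higher and 8.49% lower, 1 of the 26 was called higher and 0 lower. It was Akap13, an anchoring protein for protein kinase A, which rose from 212 ± 28.4 to 316 ± 23.1 CPM (SD, n = 4; log2 fold change 0.58, SE 0.11, limma-voom adjusted p = 0.0075). Its 4 Vehicle samples lay at 172 to 238 CPM and its AG636 samples at 283 to 332 CPM, without overlap. Of all tested genes 9.35% were higher in AG636 without overlap. The other anchoring proteins with small p-values did not pass: Akap9 had a log2 fold change of 0.30 (adjusted p = 0.0533), Akap1 of −0.84 (0.061) and Akap8 of −0.22 (0.0773). The median log2 fold change of the 26 genes was 0.08, and 7 had an unadjusted p under 0.05. Kcnk2, a potassium channel known to bind Popeye proteins, the muscle partners Xirp1 and Cav3, the pacemaker channel Hcn4, and Adcy2, Adcy5 and Pde8a had 0 counts in every library. With edgeR, RLE factors or library size alone 2 genes of the list were called, and with DESeq2 4. Akap9 passed with edgeR (adjusted p = 0.0475), DESeq2 (0.0123), RLE factors (0.0436) and library size alone (0.024), and not without the filter (0.0946). Akap1 passed with DESeq2 (adjusted p = 0.0475).

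The transcription factors that drive heart and skeletal muscle genes were mostly absent. Of 24, 13 had 0 counts in all 8 libraries, among them Gata4, Nkx2-5, Tbx20, Hand1, Hand2, Isl1 and Myocd of the heart, Tead3 and Tead4, and Myod1, Myog, Myf5 and Myf6 of skeletal muscle. Of the 6 tested, 0 were called by limma-voom, edgeR or DESeq2, with 2 at an unadjusted p under 0.05 by limma-voom. Over all tested genes 14.0% were called by limma-voom, so that 0 calls among 6 genes says little. Mef2a was not absent, with 62.9 ± 3.33 CPM in Vehicle and 68.5 ± 13.5 CPM in AG636 (log2 fold change 0.10, SE 0.13). Srf (serum response factor) had 4.10 ± 1.61 CPM in Vehicle and 1.95 ± 0.986 CPM in AG636 (log2 fold change −1.10, SE 0.40, limma-voom adjusted p = 0.0917). Mef2d had 66.6 ± 3.38 and 54.4 ± 8.03 CPM (−0.30, SE 0.11, limma-voom adjusted p = 0.0999). The Srf cofactors Mrtfa (0.42, adjusted p = 0.196) and Mrtfb (0.44, adjusted p = 0.211) also did not pass. The median log2 fold change of the 6 was 0.11. Without AG636 sample 3 Mef2d was called lower.

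Because both genes are known from heart muscle, markers of muscle were examined in the same libraries. Of 22 heart muscle markers, 14 had counts and 8 had 0 counts in every library, among them the defining genes Myh6, Actc1, Myl3, Myl7, Nppa and Nppb, and Tcap. Tnni3 (cardiac troponin I) was the exception, with 205.9 ± 48.4 CPM in Vehicle and 144 ± 57.3 CPM in AG636 (log2 fold change −0.60, limma-voom adjusted p = 0.195), its lowest value being that of AG636 sample 2, the sample in which Mylk3 was highest. The other 21 markers summed to 1.84 to 2.91 CPM in Vehicle and 2.31 to 4.04 CPM in AG636. The largest count among them was 15, in Csrp3, with 0.608 ± 0.312 CPM in Vehicle and 1.75 ± 0.436 CPM in AG636, followed by Myh7 with 0.830 ± 0.246 and 0.474 ± 0.385 CPM. The levels of Mylk3 and Popdc2, 24.95 CPM or more in every sample, thus stood beside Tnni3 and beside none of the other 21 markers at more than 15 counts, as the plot of heart muscle markers shows. Of 18 skeletal muscle markers 13 had counts, and their sum was 42.5 to 48.7 CPM in Vehicle and 27.1 to 53.5 CPM in AG636, of which Tnnt1 (31.7 ± 5.41 and 30.5 ± 10.7 CPM) and Mylpf made up most. Myl1 was at 0.622 CPM on average, and Myh1, Myh4, Casq1, Cacna1s and Mybpc2 were at 0. Of 8 smooth muscle markers 4 had counts, summing to at most 0.609 CPM in any library, with Myh11, Actg2 and Tagln the highest and Acta2, Cnn1, Myocd and Lmod1 at 0.

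**Figure D3:**
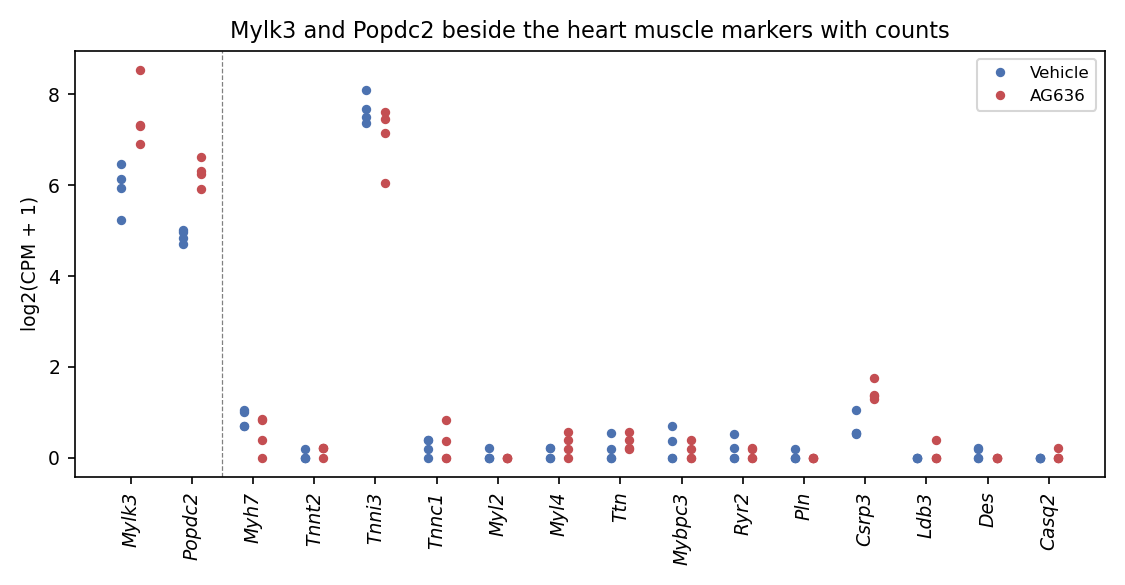
Level (log2 of CPM + 1) of Mylk3, Popdc2 and the 14 heart muscle markers with at least 1 count in each of the 4 Vehicle (blue) and 4 AG636 (red) samples, 1 point per sample. Apart from Tnni3, with 205.9 CPM on average in Vehicle, the markers lie near 0, and 8 more with 0 counts in all samples are left out.

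Markers of blood lineages were read next, since AG636 sample 2 was the highest and AG636 sample 3 the lowest treated sample for both Mylk3 and Popdc2. All 20 erythroid markers had counts and were tested. The transcription factor Gata1 had 225 ± 7.98 CPM in Vehicle and 232 ± 32.7 CPM in AG636, and Klf1 171 ± 7.76 and 192 ± 55.6 CPM. AG636 sample 2 was the highest treated sample for 17 of the 20 (85.0%, against 28.3% of all tested genes) and AG636 sample 3 the lowest for 17 of the 20 (85.0%, against 25.6%). The order of these samples in Mylk3 and Popdc2 was thus also that of most erythroid markers. Vehicle sample 4, the lowest untreated sample for both genes, was lowest for 6 of the 20 (30.0%, against 32.7%). The part of erythroid transcripts in the values of Mylk3 and Popdc2 was not tested.

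Between the groups, 2 of the 20 erythroid markers were called higher and 0 lower, where 5.47% and 8.49% of all tested genes were. A log2 fold change above 0 was found in 17 of them (49.4% of all tested genes), and the median was 0.29. Hbb-bt, an adult globin, rose from 25.6 ± 9.19 to 46.6 ± 9.32 CPM (SD, n = 4; log2 fold change 0.90, limma-voom adjusted p = 0.0238), and Rhag, a membrane protein of the red cell lineage, from 114 ± 9.49 to 171 ± 38.1 CPM (0.56, adjusted p = 0.0346). The most abundant were Car1 (2571 ± 171 and 3367 ± 794 CPM), Hbb-bs (2527 ± 1313 and 2983 ± 727 CPM) and Car2 (1399 ± 139.7 and 1385 ± 331 CPM). The largest log2 fold changes of the list did not pass. They were those of Slc4a1 (band 3 of the red cell membrane, 1.58, SE 0.48, adjusted p = 0.0501) and Aqp1 (a water channel, 1.25, SE 0.63, adjusted p = 0.201), both singled out after their values were seen. Aqp1 had 30.3, 41.8, 48.6 and 34.7 CPM in Vehicle samples 1 to 4 and 153, 276, 24.6 and 66.35 CPM in AG636 samples 1 to 4. It shared the high value of AG636 sample 2 with Mylk3, but lay below every Vehicle sample in AG636 sample 3, where Mylk3 and Popdc2 did not. The summed level of the 20 markers was 7291 to 11250 CPM in Vehicle and 9576 to 12400 CPM in AG636.

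In no other marker list was AG636 sample 2 the highest treated sample for more than 1 tested marker. The other lists with tested markers held only 1 to 8 of them. All 10 mast cell and basophil markers had counts, with sums of 2485 to 3084 CPM in Vehicle and 1786 to 4178 CPM in AG636 and with Hdc (1063 CPM on average), Ms4a2 (862.8 CPM) and Il1rl1 (770.2 CPM) highest, and Vehicle sample 4 was the lowest untreated sample for 6 of the 7 tested (85.7%), as it was for Mylk3 and Popdc2. Among the treated samples the sum was lowest (1786 CPM) in AG636 sample 2, where Mylk3 and Popdc2 were highest. It was highest (4178 CPM) in AG636 sample 3, where they were lowest. This held for the sum and not for each marker. Hdc, Ms4a2 and Il1rl1 were lowest in AG636 sample 2, but Cpa3, Tpsb2 and Cma1 were lowest in AG636 sample 1 and Fcer1a in AG636 sample 4. The part of mast cell and basophil transcripts in the values of the 2 genes was not tested. The megakaryocyte markers (10 of 12 with counts, Gp5, Treml1 and Itga2b highest, Gp1bb among those at 0) summed to 222 to 227 CPM and 186 to 310 CPM. Mature myeloid markers (14 of 14 with counts, led by S100a8, S100a9 and Ngp) summed to 49.8 to 114 CPM in Vehicle. In AG636 samples 1 to 4 they summed to 20.1, 181.8, 26.65 and 232 CPM. Sample 2 was thus far above samples 1 and 3 in this list too, and below sample 4. The part of mature myeloid transcripts in the values of Mylk3 and Popdc2 was not tested. B cell markers (8 of 8 with counts, led by Cd79b, Ms4a1 and Ebf1) summed to 6.61 to 14.0 CPM and 11.8 to 24.1 CPM. Of 5 tested, 1 was called higher, Cd79a, where 5.47% of all tested genes were. Cd79a had 2 to 7 counts in Vehicle and 10 to 22 in AG636. It passed the filter only through the AG636 samples, so nothing is read from its call. T and NK cell markers (9 of 9 with counts, led by Nkg7, Lck and Cd3d) summed to 7.61 to 15.2 CPM and 9.18 to 24.7 CPM, and stromal and endothelial markers (9 of 10 with counts, led by Kdr, Pecam1 and Emcn, with Cxcl12 at 0) to 3.69 to 5.83 CPM and 4.48 to 13.1 CPM. Each of the last 3 lists summed to less than Popdc2 alone in every AG636 sample. Popdc2 was chosen for its rise in these samples, and marker sums do not tell which cells carried it. The part of such cells in the values of Mylk3 and Popdc2 was not tested.

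The genes beside Mylk3 and Popdc2 on their chromosomes were read from the same fit. The pair was chosen for its rise, so nothing is read from its neighbors lying below it. Of all tested genes 2.56% had a log2 fold change of at least 1. Within 500 kb of Mylk3 lay 55 other genes, of which 26 were tested, with log2 fold changes from −0.67 to 0.46 and a median of −0.22. Of these 1 was called higher, Phkb (phosphorylase kinase β, 0.46, SE 0.13, limma-voom adjusted p = 0.0424), and 4 lower: Calr (calreticulin, −0.67, adjusted p = 0.0435), Syce2 (−0.66, 0.00531), Dhps (−0.51, 0.0394) and Dnaja2 (−0.38, 0.0121). The nearest tested genes were Orc6 (16.0 kb away, −0.30, adjusted p = 0.0522) and Vps35 (24.5 kb, −0.05) on the side of lower coordinates, and 4921524J17Rik (22.4 kb, −0.12) and Dnaja2 (151 kb) on the other. Around Popdc2 lay 30 genes, of which 9 were tested, with log2 fold changes from −0.96 to 0.34 and a median of −0.18. Adprh (65.8 kb, 0.34, SE 0.09, adjusted p = 0.0306) was called higher and 0 were called lower. Cox17 (9.45 kb, −0.01), Gsk3b (116 kb, 0.23, adjusted p = 0.128) and Timmdc1 (120.1 kb, −0.18) did not pass. Together 2 of the 35 tested neighbors were called higher and 4 lower by limma-voom, where 14.0% of all tested genes were called (5.47% higher and 8.49% lower). With library size alone 4 were higher and 2 lower. Leaving out single libraries gave 2 to 8 calls, with 2 without Vehicle sample 1 or AG636 sample 1 and 3 without Vehicle sample 2 or 3.

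**Figure D4:**
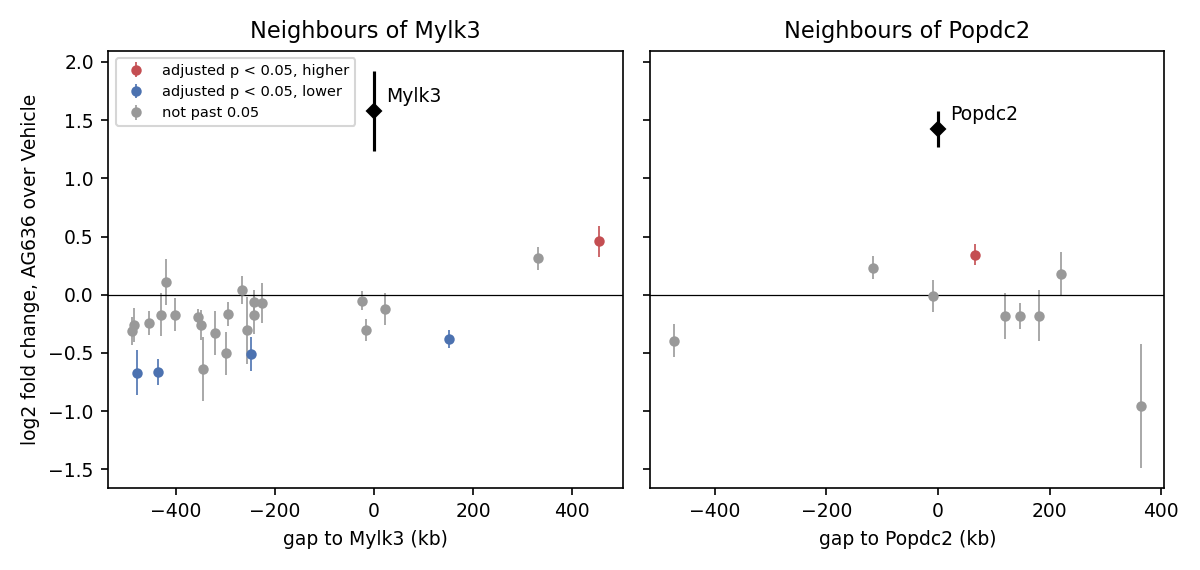
Fitted log2 fold change of AG636 over Vehicle (vertical axis, bars ± 1 SE) for the tested genes within 500 kb of Mylk3 (26 genes, left) and Popdc2 (9 genes, right), against their gap to the gene in kb. Red and blue points passed an adjusted p of 0.05 and grey points did not. All neighbors lie between −0.96 and 0.46. Mylk3 (1.58) and Popdc2 (1.43), shown as black diamonds, lie above them, a place that the choice of these genes fixes.

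Finally, the genes whose levels followed each of the pair most closely over the 8 samples were listed. Likeness was the root mean square difference of log2 CPM after subtracting each gene's own mean, over 8505 other tested genes with a mean log2 CPM of at least 3, and a smaller value means a closer match. The genes closest to Mylk3 were Tspo2 (0.304), Klhdc1 (0.308), Mfsd2b (0.328), a sphingosine-1-phosphate transporter, Gm43154 (0.332) and Gm17619 (0.360), against a median of 0.988. The genes closest to Popdc2 were 2610035D17Rik (0.192), Cd247 (0.201), the zeta chain of the T cell receptor complex, Primpol (0.228), Tspo2 (0.229) and Pspc1 (0.234), a paraspeckle protein, against a median of 0.775. Tspo2 stood in both lists, with 53.0, 48.3, 43.0 and 41.1 CPM in Vehicle samples 1 to 4 and 112, 213, 86.0 and 94.8 CPM in AG636 samples 1 to 4. Like Mylk3 and Popdc2, it was lowest in Vehicle sample 4, and highest and lowest of the treated samples in AG636 samples 2 and 3. These genes were picked for following the pair and so share the difference between groups, and the match is a description over 8 samples.

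**Figure D5:**
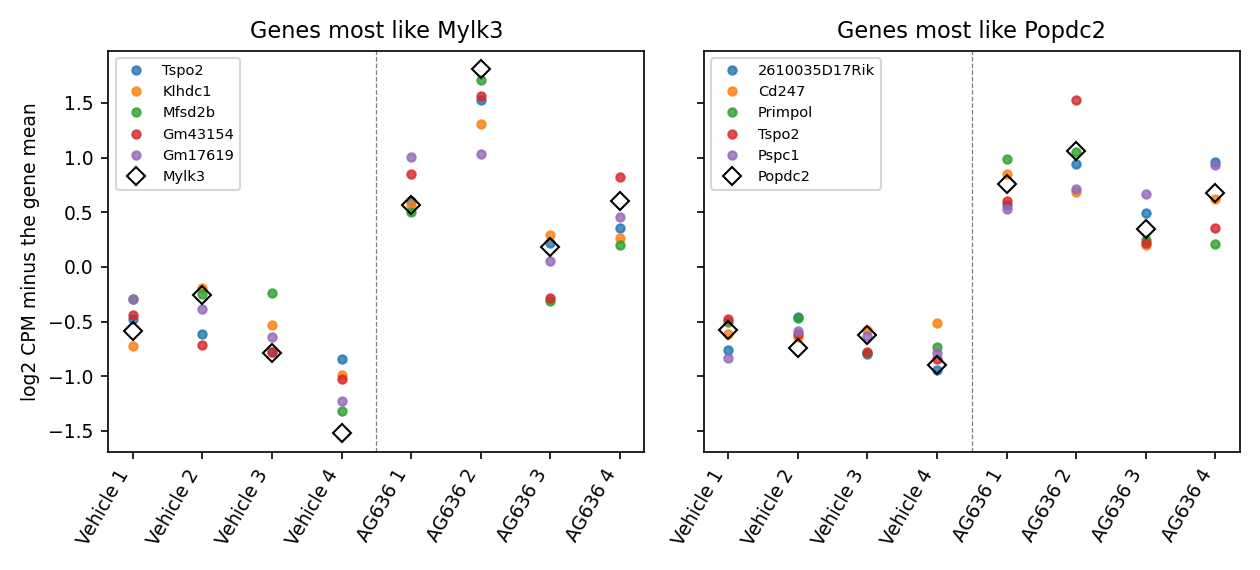
Log2 CPM minus the gene's mean (vertical axis) in each of the 8 samples (horizontal axis) for Mylk3 (left) and Popdc2 (right), shown as open diamonds, and for the 5 genes closest to each, shown as colored points. The points lie below 0 in the Vehicle samples and mostly above 0 in the AG636 samples; around Mylk3 they are highest in AG636 sample 2.

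The same measure after subtracting the mean of each group separately leaves out the difference between Vehicle and AG636. The genes closest to Mylk3 were then Ica1 (0.184), Susd2 (0.188), Mfsd2b (0.192), Zfp36l2 (0.239) and Slfn10-ps (0.243), against a median of 0.564. Mfsd2b was the 1 gene in both of the Mylk3 lists, with 18.6 CPM in Vehicle sample 4, where the other Vehicle samples had 38.2 to 39.6 CPM, and with 154 CPM in AG636 sample 2, where the other AG636 samples had 37.5 to 66.4 CPM. It thus repeated the low and the high value of Mylk3, although its groups overlapped. For Popdc2 the closest were Abhd16a (0.050), Jmy (0.052), 1810024B03Rik (0.057), Gm44250 (0.058) and Sdcbp (0.063), against a median of 0.248, and none of them was among the 5 closest over all samples. All 5 genes of each of the 4 lists were the same with a prior count of 0.5 and with library size alone.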

How the data were processed

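RNA was profiled in 4 Vehicle and 4 AG636 samples. The deposited values are raw counts per gene made by the authors, who trimmed reads, mapped them to mm10 (GRCm38) and counted them per gene. The submitters' processing notes name cutadapt 1.9.1, HISAT2 2.0.4 and featureCounts of Subread 1.5.0-p3. Use of strand and of reads that map to several places was not stated, so counts of overlapping genes and near copies are uncertain. Libraries were made with a QuantSeq 3′ kit.

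Samples were grouped by the labels. Symbols were taken from a table of gene names, in which 115 genes had none. Genes were kept by filterByExpr (minimum count 10), and the groups were compared by limma-voom with TMM factors in 1 two-sided fit of all samples, as the methods of the study name limma (R 4.3.3, limma 3.58.1, edgeR 4.0.16). Benjamini-Hochberg adjustment was over the 10911 genes tested, with a threshold of 0.05. The fit was tested on simulated data. Alternatives were edgeR, DESeq2 1.42.0, RLE factors, library size alone, no filter, the replicate number as a block and each sample left out. No pair of replicates agreed within sampling noise. Intervals and floors cover counting error only.

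Mylk3, Popdc2 and all lists (relatives, light chain phosphorylation, cAMP, muscle factors, neighbors within 500 kb, cell type markers) were chosen with earlier results of these data known. Genes named are these members and relatives, the 4 smallest p-values of each tested list, the nearest 2 tested neighbors on each side and any called, the 3 most abundant markers of each list and markers at 0, the 5 closest in pattern (log2 CPM, prior count 2), and the genes next in rank. Others are named where a count of 5 or fewer or a single value called for it: Gata1, Klf1, Slc4a1 and Aqp1, called markers, and Myl2. Myl12a, Myl12b and Mef2a are named for their levels. Promoters are from the RefSeq table. Some genes of the lists are not reported by name here.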

Additional observations from a re-analysis of the deposited data

Results flagged for a closer look

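Each sample was set against the others of its group by Dixon's ratio for the expression of genes named, summed marker lists and the ratio of Mylk3 to Popdc2. In 15 of 158 such combinations 1 sample lay farther from the rest than the ratio allows at 95%, where chance gives about 7.9. The 158 overlap, since genes close to Mylk3 or Popdc2 in pattern were picked for sharing their values.

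The ratio that concerns the pair directly was that of AG636 sample 2, where the log2 of Mylk3 over Popdc2 was 1.93, against 0.98 to 1.09 in the other treated samples. In the same sample Susd2, close to Mylk3 within groups, was at 5.93 log2 CPM (others 4.28 to 4.47), Mrtfb at 3.97 (3.48 to 3.52), Akap1 at 1.67 (2.86 to 2.93) and Il1rl1 at 9.09 (9.73 to 9.85).

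Vehicle sample 4, the lowest for both genes, was low for genes close to them in pattern. Mfsd2b was at 4.24 log2 CPM (others 5.27 to 5.32), Zfp36l2 at 8.73 (9.50 to 9.65), Slfn10-ps at 4.89 (5.62 to 5.75), Jmy at 6.18 (6.39 to 6.42) and 1810024B03Rik at 4.47 (4.69 to 4.73). In that sample Nkg7 was at −0.71 (2.79 to 3.06), and the summed skeletal muscle markers were at 5.44 on the log2 scale (5.60 to 5.63). Vehicle sample 3 had Cit at 6.76 (6.99 to 7.001), Dapk2 at 5.69 (5.43 to 5.47) and S100a8 at 4.17 (5.15 to 5.34).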

How the results depend on the processing

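The log2 fold change of Mylk3 ranged from 1.24 to 1.78 and that of Popdc2 from 1.31 to 1.54 over the 14 alternatives, both positive in each. The replicate numbers did not pair the samples, as the deviations of same-numbered samples correlated by −0.14, 0.014, 0.203 and 0.135. No sample of number 1, 2 or 4 correlated best with its own number, while number 3 did. With the replicate number as a block the log2 fold change was 1.59 for Mylk3 and 1.44 for Popdc2, and 1 light chain gene and 2 cAMP genes were called in place of 3 and 1.

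Calls among light chain genes rose to 6 with DESeq2 and to 5 with library size alone. Those among cAMP genes rose to 4 with DESeq2 and to 2 with edgeR, RLE factors or library size alone, and those among neighbors fell from 6 to 3 without the filter. Leaving out single libraries gave 0 to 3 light chain calls, 1 to 2 cAMP calls, 0 to 1 muscle factor calls (1 without AG636 sample 3) and 2 to 8 neighbor calls. Over all genes it gave 688 to 1706 calls in place of 1523, with 798, 918, 688 and 1010 without Vehicle samples 1 to 4. Scaling by library size alone turned 597 higher and 926 lower calls into 918 and 571. The median log2 fold change of all genes was −0.006 with TMM, 0.013 with RLE and 0.064 with library size alone.

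Values near 0 changed sign. Cox17 was at 0.008 with edgeR, 0.026 with DESeq2, 0.006 with RLE factors and 0.057 with library size alone, and its range without single libraries was −0.098 to 0.121 (0.010 without Vehicle sample 3, 0.016 without Vehicle sample 4). Vps35 was at 0.018 with library size alone, and Timmdc1, from −0.304 to 0.010 without single libraries, was at 0.010 without AG636 sample 3. The cause of these changes was not tested. Depth limits relatives and muscle genes of under 3 counts per library, which these libraries cannot tell from 0.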
